A study of Mus musculus with 18 samples.

Results

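The cytochrome P450 genes of families 1 to 3 encode the monooxygenases that carry out most oxidative metabolism of drugs, toxins and steroids in liver. The genes described here are the 50 genes of the deposited RNA-seq table whose symbol is Cyp followed by a family number from 1 to 3, a subfamily letter and a gene number. Symbols of another form (Cyp2ab1, Cyp2c53-ps, Cyp2d37-ps, Cyp3a41a and Cyp3a41b) lie outside this rule. Cyp2d13 meets the rule but was counted on a non-coding RefSeq transcript only. The genes described are 50 of the 15572 genes in that table and fall into 15 subfamilies, from single genes such as Cyp2e1 to the 13 genes of Cyp2c. The RNA-seq part of the study compared livers of refed wildtype (WT) mice with livers of refed JMJD1C-LKO mice. These mice carry floxed alleles of Jmjd1c, a gene for a histone H3 lysine 9 demethylase, and lose them through a Cre transgene driven by the albumin promoter, which is active in hepatocytes and leaves other liver cells with the gene. All mice were of the c57bl/6j strain on a chow diet for 6 to 8 weeks, the controls were WT littermates, and "refed" means an overnight fast followed by 6 h of a diet high in carbohydrate per the labels, while the study's methods give a longer feeding. The treatment label carries this refeeding text for every sample, also those titled as fasted, so the fasted groups rest on the sample titles and go against that label. Each of the 4 RNA-seq libraries, 2 per group, was made from pooled RNA, so the replicate spread is that between pools. The ATAC-seq lists (6 livers: 2 refed JMJD1C-LKO, 2 refed WT and 2 fasted WT) and the H3K9me2 ChIP-seq lists (4 livers: WT fasted and WT refed, 2 each) came from single livers. The study's methods give an age of 12 weeks unless stated otherwise, and the number of animals per pool was not given in the sources used here.

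P450 enzymes sit in the endoplasmic reticulum, hold a haem group and take electrons from the reductase encoded by Por. Nuclear receptors that bind foreign compounds or bile acids, such as CAR and PXR, and the aryl hydrocarbon receptor raise individual P450 genes, and growth hormone pulses set the sex difference of many Cyp2a, Cyp2b, Cyp2c and Cyp2d genes in mice. Several subfamilies are tandem arrays of near-identical copies, in which a sequence read from one gene can also match its neighbour.

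The targeted gene did not separate the groups at the adjusted threshold. Jmjd1c had 22.0 and 22.8 TMM-normalized counts-per-million (CPM) in the WT libraries and 20.04 and 20.5 CPM in the libraries labelled JMJD1C-LKO, a log2 fold change of -0.14 (SE 0.084, adjusted p = 0.233, edgeR). The study reported lower Jmjd1c mRNA in JMJD1C-LKO liver by quantitative PCR, a fall that these counts do not show at the threshold. Counts over whole transcripts do not show which exons were deleted, so this value does not check the deletion. JMJD1C-LKO stands throughout for the libraries labelled so. Library totals were 51265155 to 54400531 counts, and the 50 P450 genes together held 2.64 to 2.80% of them. Markers of hepatocytes summed to 130521 to 145491 CPM, 1 of the 10 (Tat) being higher in JMJD1C-LKO and none lower, and the liver label therefore had its defining genes. All 12 Kupffer cell and macrophage markers were higher in JMJD1C-LKO, their sum being 364 and 381 CPM in WT and 716 and 1023 CPM in JMJD1C-LKO. Of the other marker lists 6 of 10 endothelial, 3 of 10 stellate cell, 4 of 9 lymphocyte and 1 of 6 erythroid genes were higher and none lower. Of 5 tested cholangiocyte and 2 tested lung, gut, kidney or pancreas genes none passed the test. Over all genes tested, 14.6% were higher and 13.4% lower. The part of these cell type differences in the P450 values was not tested, and in bulk liver fewer cells of a type and less RNA per cell cannot be told apart.

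Among the 50 genes, 19 differed between the refed groups, 9 being higher and 10 lower in JMJD1C-LKO. Of all 14151 genes tested, 14.6% were higher and 13.4% lower by the same rule (edgeR quasi-likelihood test, Benjamini-Hochberg adjusted p under 0.05). Of the 48 tested members 18.75% were higher and 20.8% lower. The share of lower genes depended on counting near-identical copies apart: with close copies summed, an alternative chosen after seeing the data, 8 of 40 features were higher and 4 lower. The median log2 fold change of the 48 was 0.05, against 0.01 over all genes. Counted gene by gene, the changes were uneven between subfamilies. Of the 10 lower genes 6 were Cyp2c genes, and 4 of these are close copies that became 1 call when summed. None of the 7 Cyp3a genes passed. Of the 9 higher genes 4 were Cyp2d genes, among them Cyp2d11, whose call rested on a single library. The other 29 tested genes had log2 fold changes from -0.32 to 0.67. Cyp2d34 and Cyp2t4 did not pass the filter on low counts and were not tested. When either WT library was left out, fewer P450 genes were called, as were fewer genes of the whole table, in both directions. The log2 fold change of no called P450 gene changed sign in these fits. The calls of Cyp1a2, Cyp2a22, Cyp2b9, Cyp2c37, Cyp2c67, Cyp2d9, Cyp2d11, Cyp2d22, Cyp2d40 and Cyp2g1 were lost when either WT library was left out (adjusted p from 0.059 for Cyp2c37 to 0.22 for Cyp2d11), and that of Cyp2j6 without the second (adjusted p = 0.147). Cyp2a4, Cyp2b10, Cyp2c38, Cyp2c39, Cyp2c40, Cyp2c68, Cyp2c69 and Cyp2j9, 8 genes, were called in every alternative fit that tested each as a gene of its own.

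**Figure D1:**
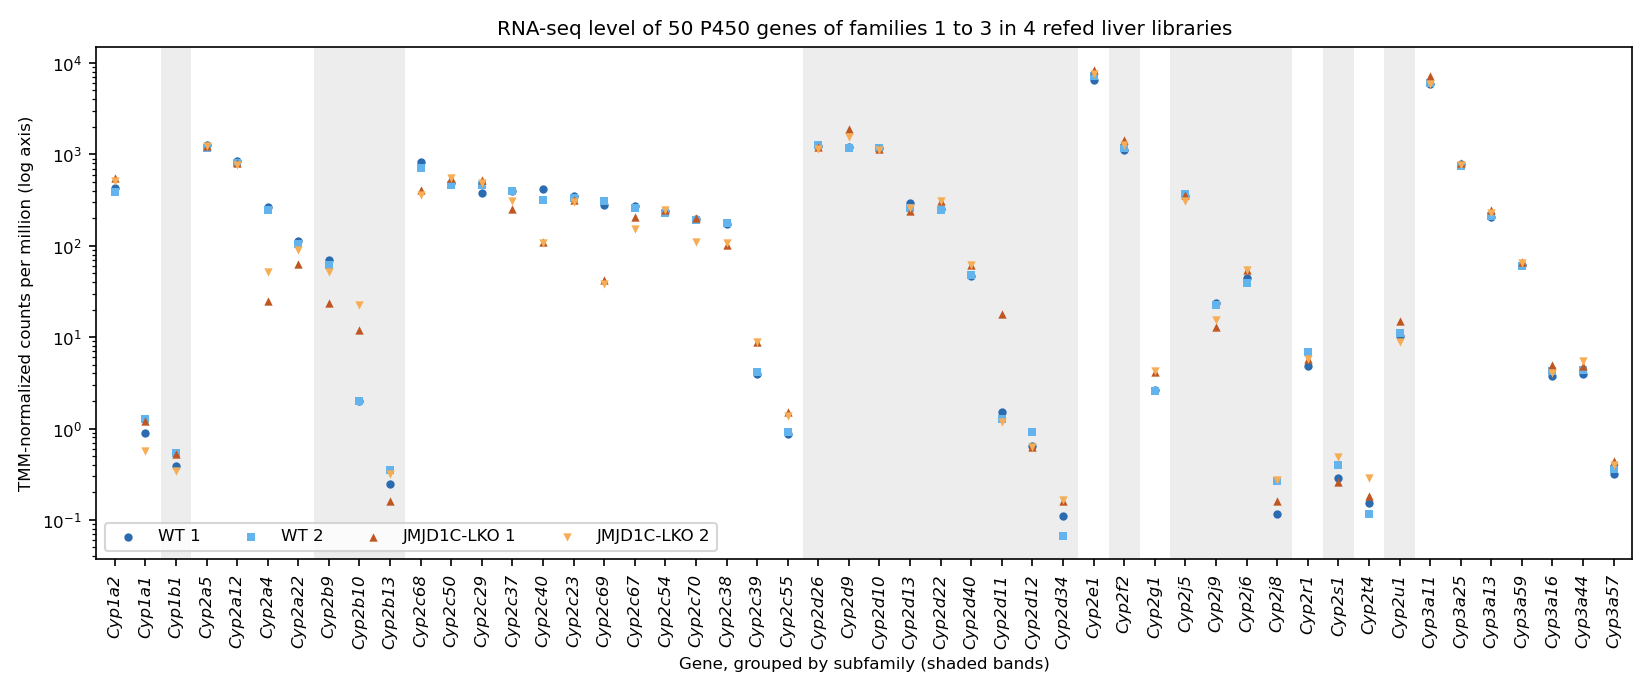
TMM-normalized CPM (log axis) of the 50 P450 genes in each of the 4 refed liver libraries, genes grouped by subfamily in shaded bands. Cyp2e1 and Cyp3a11 sit highest in all libraries, and the JMJD1C-LKO triangles fall far below the WT symbols for Cyp2a4, Cyp2c40 and Cyp2c69 and above them for Cyp2b10.

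**Figure D2:**
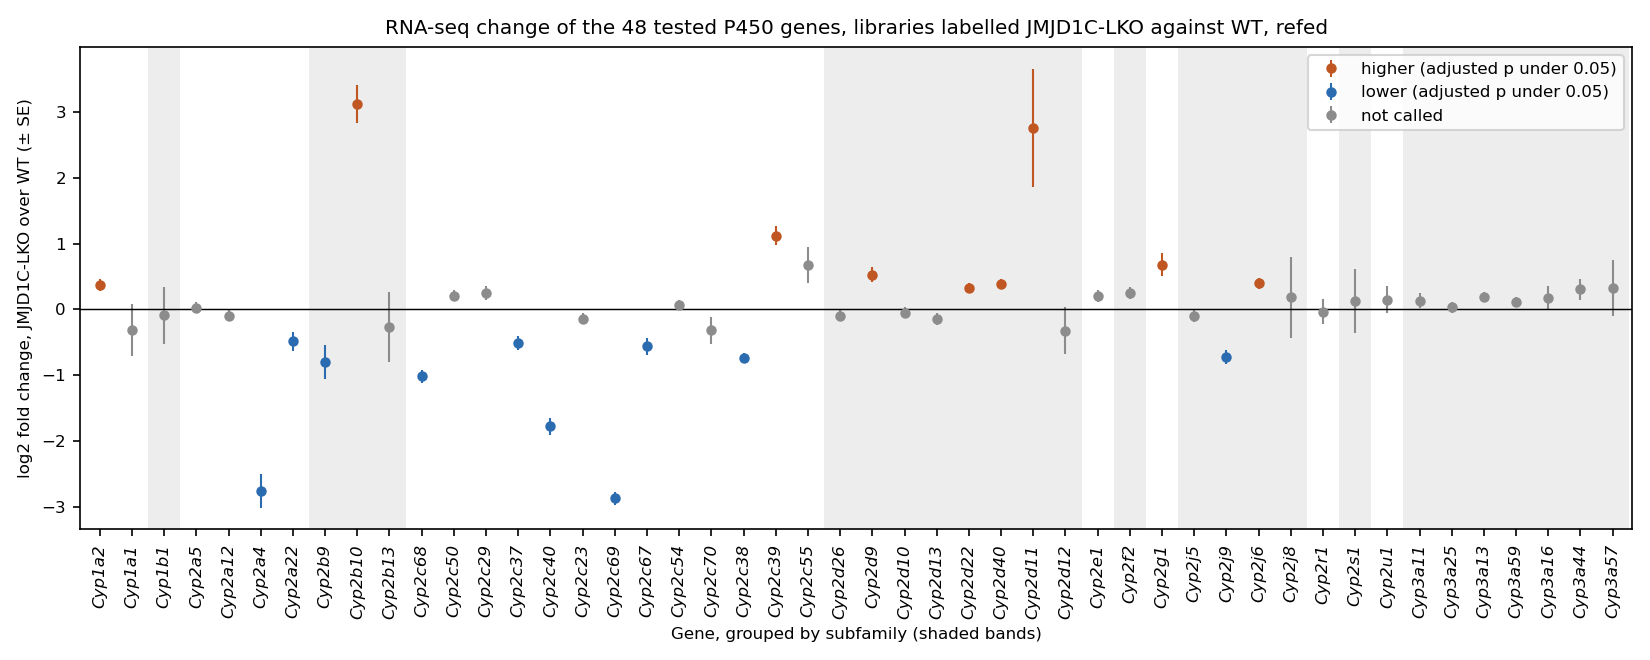
log2 fold change of JMJD1C-LKO over WT with its standard error for the 48 tested P450 genes, grouped by subfamily; colours mark genes higher, lower or not called at an adjusted p under 0.05. The lowest value is Cyp2c69 at -2.86, the highest is Cyp2b10 at 3.12, and the wide bar of Cyp2d11 comes from a single high JMJD1C-LKO library.

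Family 1 was represented by 3 genes. Cyp1a2, which metabolizes caffeine and aromatic amines, had 432 and 391 CPM in WT and 551 and 516 CPM in JMJD1C-LKO. The groups did not overlap, and the rise of 0.37 on the log2 scale (SE 0.087, adjusted p = 0.0118) amounted to 1.296-fold. Cyp1a1, the classical target of the aryl hydrocarbon receptor, was near the detection floor with 0.9 and 1.28 CPM in WT and 1.21 and 0.571 CPM in JMJD1C-LKO, and the groups overlapped (adjusted p = 0.597). Cyp1b1, expressed mainly outside hepatocytes, had 0.345 to 0.537 CPM in the 4 libraries.

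The Cyp2a subfamily lies on chromosome 7 and holds 4 genes in 2 pairs of close copies. Cyp2a4, a testosterone hydroxylase that is female-biased in mouse liver, had 267 and 247 CPM in WT and 25.1 and 51.2 CPM in JMJD1C-LKO. Both JMJD1C-LKO libraries lay far below both WT libraries, and the gene fell by 2.75 on the log2 scale (SE 0.255, adjusted p = 0.000158), or 6.72-fold. It fell by 2.33 without the first JMJD1C-LKO library and by 3.35 without the second. Its copy Cyp2a5, the coumarin hydroxylase, had 1253 and 1186 CPM in WT and 1237 and 1247 CPM in JMJD1C-LKO, and its groups overlapped (log2 fold change 0.03, adjusted p = 0.842). The coding sequences of the pair were 98.5% identical, and 36.6% of the 50-base windows of either transcript also occurred in the other, so the split of reads between them is uncertain. Summed and tested as 1 feature, the pair had 1520 and 1434 CPM in WT and 1262 and 1298 CPM in JMJD1C-LKO, a log2 fold change of -0.21 (SE 0.084, adjusted p = 0.0956).

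The promoters of the pair are shown because the genes, counted apart, differed in response while their upstream sequence was nearly the same. That difference rests on the uncertain split of reads between them. In the 250 bases before each start (RefSeq, GRCm38/mm10, both on the plus strand, Cyp2a5 at chr7:26835089-26835338 and Cyp2a4 at chr7:26306942-26307191), the windows being offset by 1 base, 4 bases of Cyp2a4 differed from Cyp2a5 and stand in capitals.
Cyp2a5: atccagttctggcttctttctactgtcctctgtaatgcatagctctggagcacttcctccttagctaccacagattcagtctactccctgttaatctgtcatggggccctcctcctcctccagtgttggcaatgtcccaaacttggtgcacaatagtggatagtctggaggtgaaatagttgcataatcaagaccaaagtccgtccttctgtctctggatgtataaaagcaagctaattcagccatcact
Cyp2a4: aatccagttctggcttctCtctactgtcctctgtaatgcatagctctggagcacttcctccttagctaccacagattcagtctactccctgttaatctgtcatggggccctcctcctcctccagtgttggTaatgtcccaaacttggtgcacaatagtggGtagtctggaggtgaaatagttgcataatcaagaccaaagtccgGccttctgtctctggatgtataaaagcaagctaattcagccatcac

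The second Cyp2a pair moved less. Cyp2a22 had 112 and 103 CPM in WT and 63.7 and 90.2 CPM in JMJD1C-LKO, without overlap, and fell by 0.48 on the log2 scale (SE 0.139, adjusted p = 0.0282), or by 0.26 without the first and 0.76 without the second JMJD1C-LKO library. Cyp2a12, a steroid hydroxylase, had 852 and 811 CPM in WT and 799 and 760 CPM in JMJD1C-LKO and was not called (adjusted p = 0.431). The pair shared 96.96% of its coding bases, and its sum was not called either (log2 fold change -0.13, adjusted p = 0.25).

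The 3 Cyp2b genes, which lie close together on chromosome 7, went in different directions. Cyp2b10, the phenobarbital-inducible target of CAR, had 1.99 and 2.01 CPM in WT and 11.9 and 22.7 CPM in JMJD1C-LKO. The rise of 3.12 on the log2 scale (SE 0.282, adjusted p = 0.000141), 8.67-fold, was the largest among the P450 genes, from a low WT level. Cyp2b9, female-biased in mouse liver, had 69.0 and 61.5 CPM in WT and 23.8 and 51.0 CPM in JMJD1C-LKO, and fell by 0.80 (SE 0.26, adjusted p = 0.045). The JMJD1C-LKO libraries of Cyp2b9 differed more from each other than the WT libraries did, and the call was lost in DESeq2 (adjusted p = 0.286). The log2 fold change of Cyp2b9 was -0.36 without the first JMJD1C-LKO library and -1.46 without the second. Cyp2b13 had 0.161 to 0.351 CPM in the 4 libraries and overlapping groups.

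Upstream sequence of the Cyp2b genes is given because Cyp2b9 and Cyp2b13 differed at only 2 of 250 bases, marked in capitals in Cyp2b9, while their WT levels per length were 34.8 and 0.16 CPM per kilobase of transcript (RPKM). All 3 windows end at the base before the RefSeq start on the plus strand of GRCm38/mm10 (Cyp2b13 at chr7:26061245-26061494, Cyp2b9 at chr7:26173159-26173408, Cyp2b10 at chr7:25897408-25897657). Cyp2b10 differed from each of the others at 75 bases, counted as substitutions and gaps.
Cyp2b13: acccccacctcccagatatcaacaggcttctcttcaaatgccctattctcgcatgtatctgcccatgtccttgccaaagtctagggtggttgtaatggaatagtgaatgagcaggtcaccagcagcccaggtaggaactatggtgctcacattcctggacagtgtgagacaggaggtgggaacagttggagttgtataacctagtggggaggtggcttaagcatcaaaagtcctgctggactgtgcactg
Cyp2b9: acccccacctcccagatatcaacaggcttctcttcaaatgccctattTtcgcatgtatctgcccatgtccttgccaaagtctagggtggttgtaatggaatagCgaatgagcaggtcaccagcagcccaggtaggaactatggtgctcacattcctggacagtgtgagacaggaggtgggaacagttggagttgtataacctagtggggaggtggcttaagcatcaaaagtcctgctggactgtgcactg
Cyp2b10: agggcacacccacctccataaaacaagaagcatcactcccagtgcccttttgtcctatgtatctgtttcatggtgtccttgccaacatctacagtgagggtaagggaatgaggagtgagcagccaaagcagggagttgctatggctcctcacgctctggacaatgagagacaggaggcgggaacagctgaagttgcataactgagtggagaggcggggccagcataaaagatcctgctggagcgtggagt

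Cyp2c was the largest subfamily, with 13 genes on chromosome 19, and 7 of them passed the test: 6 fell and 1 rose. The summed level of the subfamily was 4012 and 3872 CPM in WT and 2963 and 2773 CPM in JMJD1C-LKO, a ratio of 0.727. The fall came mainly from 4 neighbouring copies, Cyp2c67, Cyp2c68, Cyp2c40 and Cyp2c69, which lie in this order between 39608858 and 39886769 on chromosome 19 and are transcribed from the minus strand.

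Cyp2c69 had 277 and 310 CPM in WT and 42.3 and 38.4 CPM in JMJD1C-LKO, and fell by 2.86 on the log2 scale (SE 0.097, adjusted p = 1.24e-06), or 7.27-fold. The fall of Cyp2c40, whose enzyme hydroxylates arachidonic acid, was 3.42-fold: 423 and 319 CPM in WT against 110 and 107 CPM in JMJD1C-LKO (log2 fold change -1.77, SE 0.124, adjusted p = 4.29e-05). Cyp2c68, the Cyp2c gene with the highest WT level per length (434 RPKM), had 820 and 716 CPM in WT and 405 and 357 CPM in JMJD1C-LKO, 2.02-fold lower (log2 fold change -1.01, SE 0.1, adjusted p = 0.000211). For all 3 genes the groups were far apart. Cyp2c67 fell least, from 270 and 261 CPM to 208 and 153 CPM (log2 fold change -0.56, SE 0.127, adjusted p = 0.0107), without overlap. Its log2 fold change was -0.80 without the first JMJD1C-LKO library and -0.35 without the second.

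These 4 genes are 97.7 to 98.1% identical to their closest copy in coding sequence, and 44.2 to 73.6% of their 50-base windows occurred in transcripts of other genes, so the share of the fall that belongs to each is uncertain. Summed as 1 feature, the 4 genes had 1790 and 1605 CPM in WT and 765 and 655 CPM in JMJD1C-LKO. The sum fell by 1.26 on the log2 scale (SE 0.103, adjusted p = 8.09e-05), 2.39-fold, and no library of one group came near the other. The call for the 4 genes as a set therefore did not depend on how reads were divided among them. The Cyp2a4 and Cyp2a5 sum also lay lower in both JMJD1C-LKO libraries but was not called, Cyp2a5 holding most of it.

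Their upstream 250 bases (RefSeq, GRCm38/mm10, minus strand) are shown because the 4 genes fell together and share the letters CAAAGTCCA, in capitals, a sequence of the type bound by HNF4A. The first base of the match lies 45 (Cyp2c40), 77 (Cyp2c68) and 75 (Cyp2c69) bases before the annotated start, and further upstream in Cyp2c67. The windows are Cyp2c40 at chr19:39812815-39813064, Cyp2c67 at chr19:39649043-39649292, Cyp2c68 at chr19:39741102-39741351 and Cyp2c69 at chr19:39886770-39887019.
Cyp2c40: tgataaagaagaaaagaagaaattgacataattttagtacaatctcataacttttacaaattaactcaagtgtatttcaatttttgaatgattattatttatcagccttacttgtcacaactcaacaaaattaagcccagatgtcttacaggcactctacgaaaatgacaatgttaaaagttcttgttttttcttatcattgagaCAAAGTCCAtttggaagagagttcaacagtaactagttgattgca
Cyp2c67: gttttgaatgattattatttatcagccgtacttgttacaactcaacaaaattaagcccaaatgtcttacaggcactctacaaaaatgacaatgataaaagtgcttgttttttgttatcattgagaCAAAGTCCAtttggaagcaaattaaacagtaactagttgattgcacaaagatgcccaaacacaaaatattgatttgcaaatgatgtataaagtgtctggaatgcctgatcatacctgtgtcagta
Cyp2c68: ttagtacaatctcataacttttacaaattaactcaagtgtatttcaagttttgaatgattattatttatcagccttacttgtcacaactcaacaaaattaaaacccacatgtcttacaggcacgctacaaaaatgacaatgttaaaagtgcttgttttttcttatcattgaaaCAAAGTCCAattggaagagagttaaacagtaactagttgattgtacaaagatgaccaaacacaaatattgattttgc
Cyp2c69: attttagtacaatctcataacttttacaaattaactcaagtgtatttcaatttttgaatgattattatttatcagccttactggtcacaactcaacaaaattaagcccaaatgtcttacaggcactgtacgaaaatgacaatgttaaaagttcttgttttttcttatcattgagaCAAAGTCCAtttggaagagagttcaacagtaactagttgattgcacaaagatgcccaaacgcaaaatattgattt

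Motif letters in P450 promoters were counted beside those in all RefSeq promoters, as a description without a test. Windows of 250 bases before to 50 after a start were held for 42 of the 50 genes (44 windows), and Cyp2c23, Cyp2c54, Cyp2d12, Cyp2d13, Cyp2d22, Cyp2d34, Cyp2g1 and Cyp2u1 had none. Searched on both strands, CAAAGTCCA was found in 7 of the 44 windows (15.9%), those of Cyp2c70, Cyp3a11, Cyp3a16 and the 4 genes above, against 0.475% of all 32851 windows. Cyp2c70, Cyp3a11 and Cyp3a16 were not called, with log2 fold changes of -0.31, 0.13 and 0.18. The TATA box letters TATAAA were found in 24 (54.5%) against 13.6%, and the letters GTTAAT, part of the HNF1 site, in 6 (13.6%) against 7.10%. The E-box CACGTG, the core bound by USF-1, was found in the window of Cyp2j6 alone (2.27%, against 7.15% of all windows), and the C/EBP letters TTGCGCAA in none (0.183% of all windows). None of the 5 motifs contains another, and close copies are not independent windows. CG dinucleotides were sparse, with a median of 2 per window against 7 in all windows.

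The remaining Cyp2c calls were Cyp2c38, Cyp2c37 and Cyp2c39. Cyp2c38, an arachidonic acid epoxygenase, had 174 and 177 CPM in WT and 103 and 108 CPM in JMJD1C-LKO, falling by 0.74 (SE 0.078, adjusted p = 0.000283). Cyp2c37 fell from 396 and 400 CPM to 252 and 310 CPM (log2 fold change -0.50, SE 0.103, adjusted p = 0.00667). Its close copy Cyp2c50 had 486 and 464 CPM in WT and 550 and 549 CPM in JMJD1C-LKO (log2 fold change 0.21, adjusted p = 0.0749), and the sum of the pair was not called (log2 fold change -0.07, adjusted p = 0.551). Cyp2c39, a retinoic acid hydroxylase, was the single Cyp2c gene that rose, from 3.98 and 4.14 CPM to 8.74 and 8.90 CPM (log2 fold change 1.12, SE 0.14, adjusted p = 0.000646). The groups of these 3 called genes did not overlap.

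Among the 6 Cyp2c genes that were not called, Cyp2c29 had 378 and 466 CPM in WT and 521 and 481 CPM in JMJD1C-LKO (adjusted p = 0.114). Cyp2c23 and Cyp2c54 had log2 fold changes of -0.14 and 0.06. Cyp2c70, which makes the muricholic bile acids of mice, had 196 and 190 CPM in WT and 200 and 111 CPM in JMJD1C-LKO. The second JMJD1C-LKO library alone was low, and the log2 fold change of -0.31 (adjusted p = 0.288) became 0.049 without it and -0.80 without the first (adjusted p = 3.5e-05). Cyp2c55 was low, at 0.868 to 1.498 CPM.

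**Figure D3:**
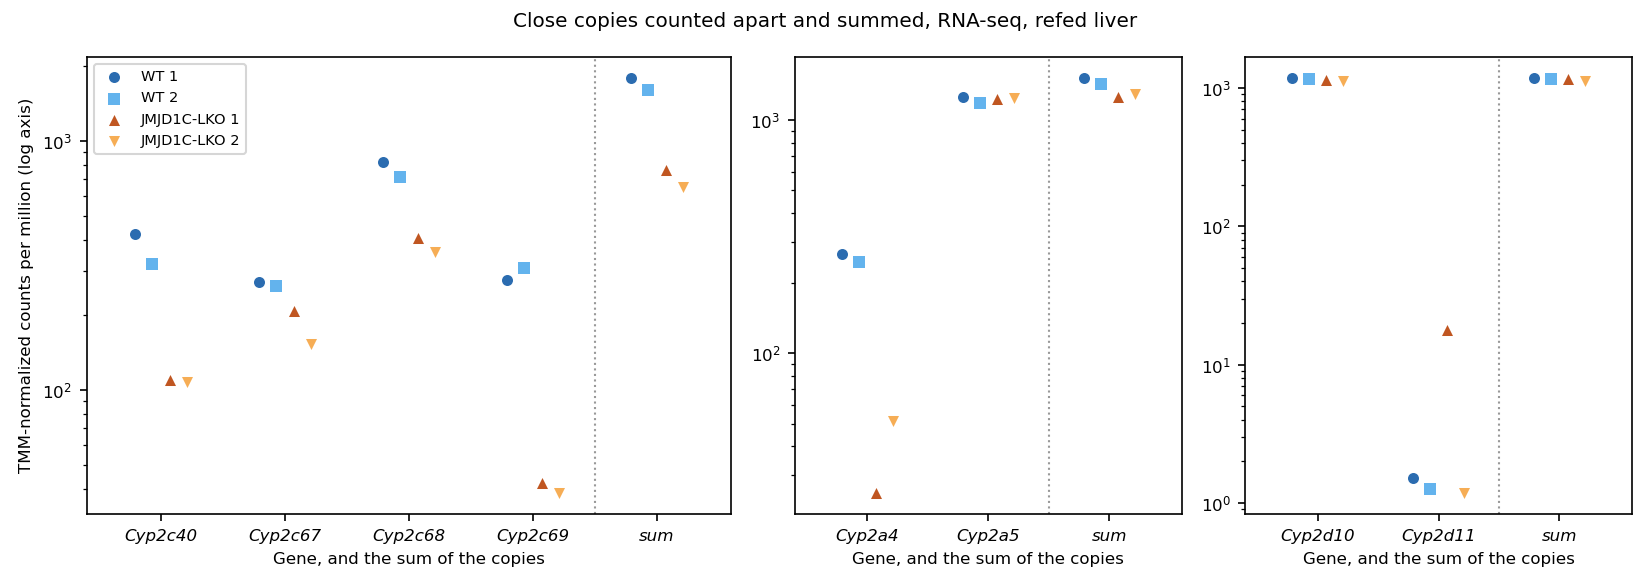
TMM-normalized CPM (log axis) of 3 sets of close copies in the 4 refed liver libraries, each gene apart and, right of the dotted line, their sum. The sum of the 4 Cyp2c genes stays apart between groups, from 1605 to 1790 in WT and 655 to 765 in JMJD1C-LKO, whereas the Cyp2a4 and Cyp2a5 sum differs little because Cyp2a5 holds most of it, and a single JMJD1C-LKO library of Cyp2d11 is high.

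Of the 9 Cyp2d genes on chromosome 15, 4 rose, none fell and Cyp2d34 was not tested. Cyp2d9, another testosterone hydroxylase that is male-biased in mouse liver, rose from 1213 and 1180 CPM to 1911 and 1541 CPM, without overlap (log2 fold change 0.53, SE 0.108, adjusted p = 0.00684). Cyp2d22 had 253 and 244 CPM in WT and 310 and 312 CPM in JMJD1C-LKO (log2 fold change 0.33, SE 0.077, adjusted p = 0.0132), and Cyp2d40 had 47.1 and 48.2 CPM against 62.0 and 62.0 CPM (log2 fold change 0.38, SE 0.076, adjusted p = 0.00598). In both genes the libraries of a group agreed closely and the groups did not overlap.

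The call for Cyp2d11 rested on a single library. The gene had 1.52 and 1.26 CPM in WT, 17.8 CPM in the first and 1.18 CPM in the second JMJD1C-LKO library, so that the groups overlapped in spite of a log2 fold change of 2.75 (SE 0.893, adjusted p = 0.045). Without the first JMJD1C-LKO library the log2 fold change was -0.25 (adjusted p = 0.579), and DESeq2 did not call the gene (adjusted p = 0.186). Its close copy Cyp2d10 had 1124 to 1182 CPM in the 4 libraries, and 26.9% of the 50-base windows of Cyp2d11 also occur in Cyp2d10. The summed pair was not called (log2 fold change -0.04, adjusted p = 0.76).

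Cyp2d26, the Cyp2d gene with the highest WT level per length (764 RPKM), had 1248 and 1267 CPM in WT and 1215 and 1138 CPM in JMJD1C-LKO, and was not called (adjusted p = 0.424). Cyp2d10 and Cyp2d13 were not called either, with log2 fold changes of -0.05 and -0.15. Cyp2d12 was under 1 CPM in all libraries.

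Cyp2e1, the ethanol-inducible enzyme that also activates acetaminophen, had the highest level per length of the 50 genes, 3740 and 4058 RPKM in the WT libraries. It had 6590 and 7151 CPM in WT and 8314 and 7519 CPM in JMJD1C-LKO. All JMJD1C-LKO values lay above the WT values, but the log2 fold change of 0.20 (SE 0.098, adjusted p = 0.15) did not pass the test. Cyp2f2, which activates naphthalene, had 1110 and 1168 CPM in WT and 1450 and 1256 CPM in JMJD1C-LKO (log2 fold change 0.25, SE 0.095, adjusted p = 0.0784, or 0.0152 without the second JMJD1C-LKO library). Cyp2g1, known from olfactory tissue, rose from 2.66 and 2.59 CPM to 4.13 and 4.28 CPM (log2 fold change 0.68, SE 0.179, adjusted p = 0.0199) at a level of 1.42 RPKM in WT.

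The 4 Cyp2j genes on chromosome 4, whose enzymes include epoxygenases of arachidonic acid, gave 1 rise and 1 fall. Cyp2j9 fell from 23.7 and 22.6 CPM to 12.8 and 15.3 CPM (log2 fold change -0.72, SE 0.105, adjusted p = 0.00141). Cyp2j6 rose from 43.8 and 38.9 CPM to 54.3 and 54.5 CPM (log2 fold change 0.39, SE 0.085, adjusted p = 0.00888). Neither gene had overlapping groups. Cyp2j5 had the highest level per length of the subfamily (98.2 RPKM in WT) with 351 and 367 CPM in WT and 361 and 308 CPM in JMJD1C-LKO, and overlapped. Cyp2j8 was under 1 CPM.

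The single genes of the other Cyp2 subfamilies had low levels and none passed the test. Cyp2r1, a vitamin D hydroxylase, had 4.80 and 6.94 CPM in WT and 5.77 and 5.72 CPM in JMJD1C-LKO (adjusted p = 0.916), and its groups overlapped. Cyp2u1, a fatty acid hydroxylase, had 10.4 and 11.2 CPM in WT and 15.02 and 8.93 CPM in JMJD1C-LKO, also overlapping (adjusted p = 0.622, or 0.0148 without the second JMJD1C-LKO library). Cyp2s1, known from epithelia outside the liver, had 0.263 to 0.490 CPM, and Cyp2t4 had 0.115 to 0.290 CPM.

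The Cyp3a subfamily on chromosome 5 had a summed level with a mean of 7015 CPM in WT and 7635 CPM in JMJD1C-LKO, mostly from Cyp3a11, its main steroid and drug oxidase in mouse liver. Cyp3a11 had 5936 and 6012 CPM in WT and 7244 and 5838 CPM in JMJD1C-LKO, and the groups overlapped (log2 fold change 0.13, SE 0.112, adjusted p = 0.421). Without the second JMJD1C-LKO library it was 0.28 (adjusted p = 0.045), and without the first -0.04 (adjusted p = 0.754). Together Cyp2e1 and Cyp3a11 held 48.5% of the summed P450 CPM in WT and 52.4% in JMJD1C-LKO. All 7 Cyp3a genes had positive log2 fold changes of 0.03 to 0.32 and none was called. Cyp3a25 had 781 and 749 CPM in WT and 795 and 770 CPM in JMJD1C-LKO, its sum with the close copy Cyp3a59 gave a log2 fold change of 0.04 (adjusted p = 0.757), and Cyp3a13 had 204 and 211 CPM against 244 and 229 CPM (adjusted p = 0.109). Cyp3a16, Cyp3a44 and Cyp3a57 were under 6 CPM.

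Genes that serve the P450 enzymes were more often lower than higher. Of 21 tested genes for redox partners, haem supply and co-factors, 1 was higher and 6 lower, with a median log2 fold change of -0.04. Among all genes tested, 14.6% were higher and 13.4% lower. Por, the electron donor of all microsomal P450 enzymes, rose from 476 and 485 CPM to 672 and 773 CPM (log2 fold change 0.59, SE 0.091, adjusted p = 0.00181). Alas1, the first enzyme of haem synthesis, fell from 764 and 840 CPM to 532 and 529 CPM (log2 fold change -0.60, SE 0.085). Ephx1, the microsomal epoxide hydrolase, fell from 847 and 863 CPM to 497 and 458 CPM (log2 fold change -0.84). Cyb5b of the outer mitochondrial membrane (-0.39) and Blvrb, a biliverdin reductase (-0.34), were also lower.

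Of 32 tested receptors and other regulators of P450 genes, 4 were higher and 11 lower, with a median of -0.13. Nr1i3, the gene of CAR, named like the next 3 genes after its value was seen, fell from 228 and 226 CPM to 173 and 185 CPM (log2 fold change -0.34, SE 0.079, adjusted p = 0.0115), and Cyp2b10 was higher in the same libraries. Nr1i2, the gene of PXR, had 95.0 and 103 CPM in WT and 107 and 102 CPM in JMJD1C-LKO, and neither it, Ahr nor Hnf4a was called. The regulators with the smallest p-values were Onecut1 (log2 fold change -1.21), Cebpb (1.05), the bile acid receptor gene Nr1h4 (-0.65), Cux2 (-1.39) and Foxa2 (-0.60).

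Sex-biased liver genes, leaving out only the P450 genes of families 1 to 3, were listed because several of the P450 genes that changed are sex-biased. Of 18 such genes 9 were higher and 3 lower in JMJD1C-LKO, with a median log2 fold change of 0.52. Female-biased genes were found on both sides: the sulfotransferase genes Sult2a2 and Sult2a1 rose by 5.33 and 5.13 on the log2 scale from levels under 1 CPM, and A1bg fell by 1.99. The male-biased genes Elovl3, a fatty acid elongase, and Mup21, a urinary protein, rose 6.59-fold and 2.46-fold. Cux2, from the list of regulators, is also in this list. Transcripts of the Y-linked genes Ddx3y, Eif2s3y, Kdm5d and Uty were found in all 4 libraries and Xist stayed between 0.525 and 1.37 CPM, with Kdm5d lower in JMJD1C-LKO (adjusted p = 0.0211).

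Open chromatin was compared through the ATAC-seq summits, the points of highest signal in each peak called in a liver. A summit within 1000 bp of a RefSeq start was found for Cyp2r1 and for no other P450 gene. Cyp2j5 had one just outside this window, at -1044 bp in the first WT fasted liver (score 3.24). Cyp2r1 had a summit at -242 bp in the first WT fasted liver (score 8.25, rank 1266 of 5220 by score) and at -193 bp in the first WT refed liver (score 5.67, rank 2279 of 5027), the score being -log10 of the peak caller's q-value. No P450 gene had a summit in both livers of a group. Of the 26180 annotated genes 0.397% had one in the refed JMJD1C-LKO livers, 4.78% in the refed WT livers and 4.36% in the fasted WT livers. With shares this low, none among 50 genes is close to the share of all genes. By liver, start summits covered 4.06% and 0.886% of all genes for refed JMJD1C-LKO, 9.94% and 6.24% for refed WT, and 12.0% and 5.49% for fasted WT, in lists of 825 to 7632 summits. The lists hold no read totals, so a start without a summit was not detectable as open at the depth of that liver and is not thereby shown to be closed. The highly transcribed Cyp2e1 and Cyp3a11 had none in any of the 6 livers.

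Cyp2r1 also had the most CG-rich promoter window of the 44, with 22 CG dinucleotides in 300 bases, more than in 76.9% of all windows. The 250 bases before its start (chr7:114562973-114563222, minus strand, GRCm38/mm10), which hold both ATAC-seq summits, are shown with the CG dinucleotides in capitals.
Cyp2r1: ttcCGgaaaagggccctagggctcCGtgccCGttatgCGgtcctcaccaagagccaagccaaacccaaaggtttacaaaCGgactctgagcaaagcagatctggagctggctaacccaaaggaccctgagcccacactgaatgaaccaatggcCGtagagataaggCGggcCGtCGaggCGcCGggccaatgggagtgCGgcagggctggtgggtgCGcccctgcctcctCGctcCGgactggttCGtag
The windows of Cyp2s1 and Cyp1b1 followed with 17 and 16, and neither had an ATAC-seq summit.

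H3K9me2 is a histone mark linked to silenced chromatin and is a substrate of JMJD1C. The first WT refed liver stood apart with 1297 summits, at the starts of 0.233% of all genes, while the other 3 lists held 7690 to 13456, and it gave no P450 gene. Start summits were found at 13 P450 genes in the first WT fasted liver (29.3% of all genes), at 26 in the second (42.7%) and at 23 in the second WT refed liver (35.1%). In both fasted livers together 13 of the 50 had a summit, against 29.1% of all genes, and in both refed livers none, against 0.0420%. With a WT refed group that rests on 1 usable list, fasted and refed livers were not compared.

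The 13 genes with summits in both fasted livers were Cyp2a12, Cyp2c68, Cyp2d9, Cyp2d10, Cyp2d13, Cyp2d22, Cyp2d26, Cyp2e1, Cyp2j5, Cyp2j6, Cyp2u1, Cyp3a11 and Cyp3a13. The highest scores in both fasted livers belonged to Cyp2d26 (32.04 and 84.9 in the fasted livers, 31.2 in the second refed liver), Cyp2j5 (29.3, 83.7 and 31.1), Cyp2d9 (28.2, 74.9 and 30.5) and Cyp2d10 (19.8, 82.3 and 35.0). In the second refed liver Cyp2d13 (33.3) ranked second, after Cyp2d10. Cyp2e1 had 9.92, 53.5 and 18.9, and Cyp3a11 had 6.52, 31.2 and 11.3. Scores of the second fasted liver were higher at all 13 genes, a difference between lists. In family 1 Cyp1a2 had summits in the second fasted and second refed livers (12.6 and 11.5).

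Nearly all H3K9me2 summits at P450 genes lay inside the transcribed side of the start. Of 65 summits at 27 genes 63 were downstream, at a median of 630 bp in the first fasted, 323 bp in the second fasted and 382.5 bp in the second refed liver. The exceptions were a second summit of Cyp2r1 at -514 bp in the second fasted liver and a second summit of Cyp2d13 at -413 bp in the second refed liver. The other summit of Cyp2r1 in that fasted liver lay 158 bp downstream (score 38.7). With a window of 1000 bp upstream to 100 bp downstream, no P450 gene had a summit in both livers of a group. These placements were not counted over all genes, so they cannot be called particular to P450 genes.

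**Figure D4:**
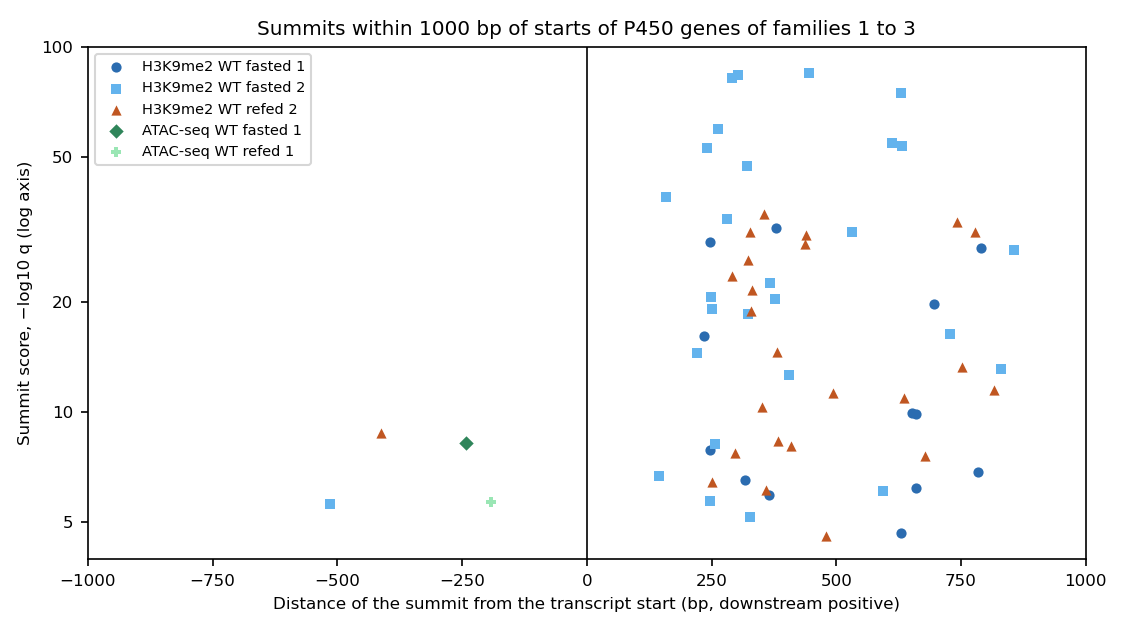
Score (-log10 q, log axis) of each summit within 1000 bp of a start of a P450 gene against its distance from that start in bp, downstream positive, by liver. H3K9me2 points lie almost all at 145 to 857 bp downstream, and the 2 ATAC-seq points, both of Cyp2r1, lie at -242 and -193 bp.

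Genes with H3K9me2 summits in both fasted livers were mostly highly transcribed. Their WT refed levels ran from 4.62 to 3899 RPKM with a median of 434 RPKM, against a median of 30.1 RPKM in the other 37 genes. The 2 measures came from different mice and feeding states, and the difference is given without a test. Across all tested genes with a known length, a start summit in both fasted livers was found for 74.3% of those at or above the median WT level and for 26.2% of those below it. Of the 34 P450 genes at or above that median 13 had one (38.2%), and of the 14 below it none.

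The ChIP reads were kept only where they aligned to a single place, which bears on the close copies. Of 22 genes with at least 100 RPKM in WT, a limit chosen after the values were seen, 18 had an H3K9me2 start summit in at least 1 liver, and Cyp2a4, Cyp2a5, Cyp2c40 and Cyp2c69 had none. In those 4 genes 48.3 to 63.2% of the 50-base stretches within 1000 bp of the start occurred once in the genome, against 69.5 to 100% in the 18. Whether this accounts for the lack of summits was not tested, and a start without a summit cannot be read as free of the mark in these genes.

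**Figure D5:**
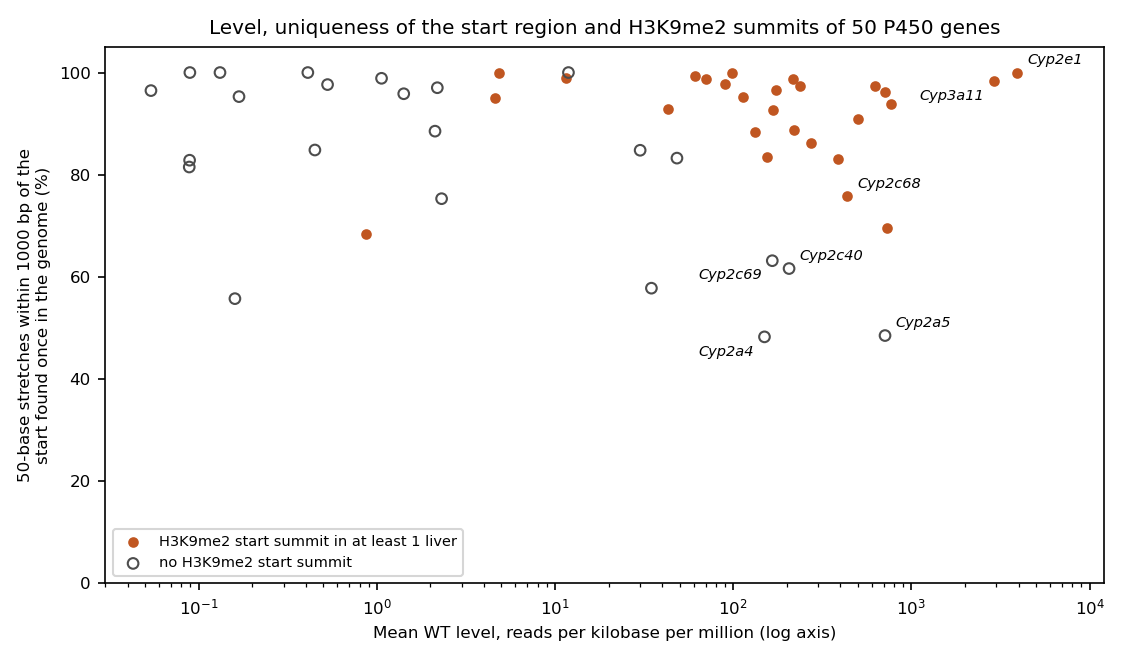
Percent of 50-base stretches within 1000 bp of the start that occur once in the genome against the mean WT level per length (log axis) for the 50 P450 genes; filled points have an H3K9me2 start summit in at least 1 liver. The open points of Cyp2a4, Cyp2a5, Cyp2c40 and Cyp2c69 lie at 48.3 to 63.2% in spite of levels above 100 RPKM.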

How the data were processed

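Mouse liver was measured by RNA-seq, ATAC-seq and H3K9me2 ChIP-seq, and groups came from the labels (fasted or refed from the sample titles, since the treatment label gives the refeeding text to every sample). RNA-seq values are estimated counts for each RefSeq transcript as the authors deposited them. The submitters' processing notes name HISAT2 and Partek, and the counter was not given in the sources used here. The deposited summit lists hold -log10 q-values from MACS2 (2.1.1) for each liver on mm10, called at q 0.05 with 2.5-fold enrichment over input for uniquely aligned ChIP reads (Bowtie2) and 2-fold for ATAC-seq (BWA). A table of the authors' own comparison (fold changes, p-values) was not used.

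Counts were summed per gene, rounded, filtered (filterByExpr), TMM-normalized and tested in edgeR 4.0.16 by the quasi-likelihood F test of genotype without a block, with Benjamini-Hochberg adjustment over 14151 genes. The SE is the log2 fold change divided by the square root of F. Levels between genes were compared per kilobase of RefSeq transcript (24682 of 24994 matched). Close copies were members of which either shared at least 20% of its 50-base windows with the other. Totals of 51265155 to 54400531 counts limit genes near 1 CPM. Genes named were all those called, the highest per length of each subfamily, those with a start summit and textbook targets, Jmjd1c, and at most 5 called genes of each other list. Alternatives were DESeq2 1.42.0, its size factors, no filter, a replicate block, each library left out, transcripts tested alone, other summit windows and scores and, added after seeing the data, summed copies. The scripts were tested on simulated data. The members and gene lists were chosen with earlier results of these data known. No protein table was used here, and proteins were not analysed. P-values measure the spread between pools.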

Additional observations from a re-analysis of the deposited data

How the results depend on the processing

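With DESeq2 size factors or no filter 9 P450 genes were higher and 10 lower, as in the fit without them. In the DESeq2 test 8 were higher and 9 lower, Cyp2b9 and Cyp2d11 being lost. The replicate block, tried because the groups share replicate numbers, gave 9 and 11, kept all 19 calls and added Cyp2c70 (adjusted p = 0.0224). The numbers were not taken as pairs, since the labels do not give a shared batch and the deviations of same-numbered libraries had a correlation of -0.017 over 14151 genes.

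Leaving out 1 library gave 2 to 12 genes higher and 6 to 11 lower. Without the first WT library (3 and 6) the calls of Cyp1a2, Cyp2a22, Cyp2b9, Cyp2c37, Cyp2c67, Cyp2d11, Cyp2d22, Cyp2d40, Cyp2d9 and Cyp2g1 were lost, and without the second (2 and 6) that of Cyp2j6 as well. Calls over all genes also fell in both of these fits, in each direction. Without the first JMJD1C-LKO library (8 and 11) Cyp2d11 turned. Its log2 fold change ran from -0.25 to 3.67. In 12 uncalled genes the sign turned: Cyp1a1 (-0.97 to 0.15), Cyp1b1 (-0.42 to 0.19), Cyp2a5 (-0.02 to 0.0636), Cyp2b13 (-0.87 to 0.12), Cyp2c70 (-0.80 to 0.0490), Cyp2j5 (-0.22 to 0.00847), Cyp2j8 (-0.30 to 0.90), Cyp2r1 (-0.28 to 0.25), Cyp2s1 (-0.39 to 0.49), Cyp2u1 (-0.28 to 0.48), Cyp3a11 (-0.0399 to 0.28) and Cyp3a25 (-0.0011 to 0.0596). Tested by transcript, 2 genes were higher and 6 lower, and the cause was not tested. With close copies summed to 1 feature (40 features tested) 8 were higher and 4 lower: the 4 lower Cyp2c copies became 1 call, and the sums that hold Cyp2a4, Cyp2a22, Cyp2c37 and Cyp2d11 were not called.

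For ATAC-seq a summit in at least 1 liver was found for 1 gene in WT fasted and 1 in WT refed livers, and single livers gave 0 to 1 in each. For H3K9me2 in WT fasted livers the count of 13 became 0 in the window ending 100 bp downstream, 26 with a summit in at least 1 liver, and 13 to 26 by single livers. It was 16 within 2500 bp and 12 with a score of at least 5. In WT refed livers a summit in at least 1 liver gave 23, and single livers 0 to 23. The order of levels within the 15 subfamilies was led by the same genes with CPM as per length. Arms with a lone library are assumed to vary like the other group, and genes near 1 CPM are limited by depth.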

Other observations

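P450 genes outside families 1 to 3 were more often higher than lower. Of 27 tested, 13 were higher and 2 lower in JMJD1C-LKO, with a median log2 fold change of 0.30. The genes of families 2 and 3 whose symbols have another form are not among them, and the 3 of those 5 that were tested were not called. Cyp17a1, a steroid hydroxylase, rose from 22.2 and 19.1 CPM to 50.4 and 59.5 CPM (log2 fold change 1.41). Cyp8b1 and Cyp27a1 of bile acid synthesis rose by 0.65 and 0.59, Cyp4f15 rose by 0.92, and Cyp7a1, the rate-limiting enzyme of that pathway, fell from 166 and 178 CPM to 114 and 118 CPM (log2 fold change -0.57).

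Genes that mark the zones of the liver lobule were read beside the P450 genes, many of which are pericentral. Of 10 pericentral genes 5 were higher and 1 lower, Oat rising from 609 and 475 CPM to 1059 and 1102 CPM and Tbx3 falling from 46.5 and 45.5 CPM to 28.3 and 20.5 CPM. Of 12 periportal genes 7 were higher and none lower, among them Sds (log2 fold change 1.64) and Pck1 (1.33). Genes of both zones were thus among those that rose. The medians of the pericentral and periportal lists were 0.39 and 0.40.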
